A study of Mus musculus with 48 samples.

Results

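The 10 apolipoprotein genes Apoa1, Apoa2, Apoa4, Apoa5, Apob, Apoc1, Apoc3, Apoe, Apoh and Apom were followed across 5 groups of samples from a mouse model in which liver spheroids are grown on the iris. They were picked by name, as genes whose products coat plasma lipoproteins or bind phospholipid, and make up 10 of the 46517 mouse genes counted. Each symbol matched a single gene identifier, and all 10 genes passed the filter on low values in each of the 7 comparisons described here.

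Bulk RNA-seq (Smart-seq3 libraries) covered 16 samples of wild-type albino mice whose strain is given as C57BL/6N, each sequenced as 3 technical libraries that were summed. The 5 explants, numbered 1, 2, 4, 5 and 6, were liver spheroids dissected out of the anterior chamber of the eye 2 months after transplantation, together with the iris around them. The references were 3 irises that carried no graft, 3 pieces of endogenous liver from donor mice, 3 preparations of primary hepatocytes isolated from donor livers, and 2 samples of spheroids that had stayed in culture. Spheroids were formed from a liver cell fraction enriched for hepatocytes, so other liver cells can be present, and an explant is always graft plus iris. The study states that its experiments had biological replicates, but the labels do not say which sample came from which animal or preparation, so p-values measure the spread between these samples, part of which may be technical.

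Apolipoproteins are the protein part of lipoproteins, the particles that carry triglyceride and cholesterol in plasma. Apob is the non-exchangeable scaffold around which the liver builds very-low-density particles. Apoa1 and Apoa2 are the main proteins of high-density lipoprotein. Apoa5 and the small Apoc proteins tune how fast plasma triglyceride is cleared. Apoe is the ligand by which remnant particles are taken up by hepatocytes. Hepatocytes make most of these proteins, while Apoe is also made by macrophages, glia and other cells outside the liver.

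The genes sit in 2 clusters and 4 single loci (mm10, the build of the files). On chromosome 9, Apoa1 (chr9:46228580-46230466), Apoc3 (chr9:46232933-46235636), Apoa4 (chr9:46240696-46243459) and Apoa5 (chr9:46268633-46271919) lie side by side, with Apoc3 on the minus strand and the others on the plus strand. On chromosome 7, Apoc1 (chr7:19689484-19692658) and Apoe (chr7:19696109-19699166) are neighbours on the minus strand. Apoa2 lies on chromosome 1, Apoh on chromosome 11, Apob on chromosome 12 and Apom on chromosome 17.

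Promoter sequence was held for 8 of the 10 genes, all but Apoc1 and Apoc3. The stretches of 250 bases upstream of the RefSeq start sites of 3 neighbours on chromosome 9 and of Apob are shown, because Apoa1 was called higher in explants than in liver while Apoa4, Apoa5 and Apob had lower values (RefSeq, GRCm38.p6, plus strand, 5′ to 3′, ending at the base before the start site). Capitals mark every match to 3 short motifs searched on both strands, none of which overlap each other here. CAAAGNNCA is a core of the nuclear receptor element bound by HNF4, TATAAA is the TATA box, and TTGCNNAA is a core of the C/EBP element. The windows are chr9:46228380-46228629 for Apoa1, chr9:46240594-46240843 for Apoa4, chr9:46268358-46268607 for Apoa5 (the first of its 2 listed starts) and chr12:7977427-7977676 for Apob.
Apoa1: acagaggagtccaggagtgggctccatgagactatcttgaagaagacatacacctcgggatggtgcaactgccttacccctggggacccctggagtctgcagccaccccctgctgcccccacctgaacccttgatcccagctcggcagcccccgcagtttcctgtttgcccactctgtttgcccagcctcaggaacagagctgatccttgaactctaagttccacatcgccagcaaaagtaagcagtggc
Apoa4: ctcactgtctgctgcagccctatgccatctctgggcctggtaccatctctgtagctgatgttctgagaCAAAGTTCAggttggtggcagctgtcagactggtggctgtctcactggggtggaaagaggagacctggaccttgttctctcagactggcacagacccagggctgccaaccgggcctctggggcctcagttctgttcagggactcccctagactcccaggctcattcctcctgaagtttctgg
Apoa5: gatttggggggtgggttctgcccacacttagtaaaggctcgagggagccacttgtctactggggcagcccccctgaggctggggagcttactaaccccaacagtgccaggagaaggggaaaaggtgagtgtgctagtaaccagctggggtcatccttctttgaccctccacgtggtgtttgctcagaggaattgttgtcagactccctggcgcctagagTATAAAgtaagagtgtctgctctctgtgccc
Apob: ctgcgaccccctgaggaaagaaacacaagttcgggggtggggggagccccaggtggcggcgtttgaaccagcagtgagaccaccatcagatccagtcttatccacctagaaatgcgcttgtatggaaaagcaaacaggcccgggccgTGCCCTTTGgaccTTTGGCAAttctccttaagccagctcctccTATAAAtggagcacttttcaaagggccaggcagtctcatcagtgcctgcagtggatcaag

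The Apob window held all 3 motifs: CAAAGNNCA and TTGCNNAA on the opposite strand at 103 to 95 and 90 to 83 bases before the start, and TATAAA at 60 to 55 bases before it. Apoa4 held CAAAGNNCA at 182 to 174 bases, Apoa5 held TATAAA at 31 to 26 bases, and Apoa1 held none of the 3 strings. Among 32851 promoters of the same length, CAAAGNNCA was found in 5.49%, TATAAA in 12.4% and TTGCNNAA in 9.56%. A match describes letters and is not a measured site, and a window without a match can still hold a variant of the element. In the annotation used for counting, Apoa1, Apoa4 and Apob begin inside these windows.

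Levels are given as TPM, in which counts are divided by exonic length and scaled to a fixed total, so that genes can be compared. In liver the order of mean levels was Apoa2, Apoa1, Apoe, Apoc1, Apoh, Apoa4, Apoc3, Apoa5, Apom and Apob, from 2730 ± 173 TPM for Apoa2 to 612 ± 103 TPM for Apob (SD, n = 3). Neighbours in this order often lay within each other's spread, as did Apoe (2083 ± 49.8 TPM) and Apoc1 (1993 ± 163 TPM), or Apoa4 (1462 ± 568 TPM), Apoc3 (1345 ± 127 TPM) and Apoa5 (1282 ± 104 TPM). Together the 10 genes took 1.64% of all TPM in liver, 1.63% in hepatocytes, 1.42% in spheroids and 0.239% in iris. Total counts per sample ran from 2718518 to 6789648, and the median coefficient of variation of a member's scaled count over the technical libraries was 6.52% (highest 49.1%).

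A property of the counts bears on the most abundant members. Duplicate reads had been removed by the authors before counting. Among genes of at least 500 bases the densest gene of each library held 1.44 to 1.70 counts per base. In liver libraries the short, abundant members stood near that range, at 1.33 counts per base for Apoa2, 1.18 for Apoa1 and 1.01 for Apoe, against 0.419 for Apom and 0.298 for Apob. High levels of Apoa1, Apoa2, Apoe and Apoc1 can therefore be compressed. Values with a read start limit undone assume that at most 2 reads could be kept at each base, a limit inferred from these densities and stated by no source.

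**Figure D1:**
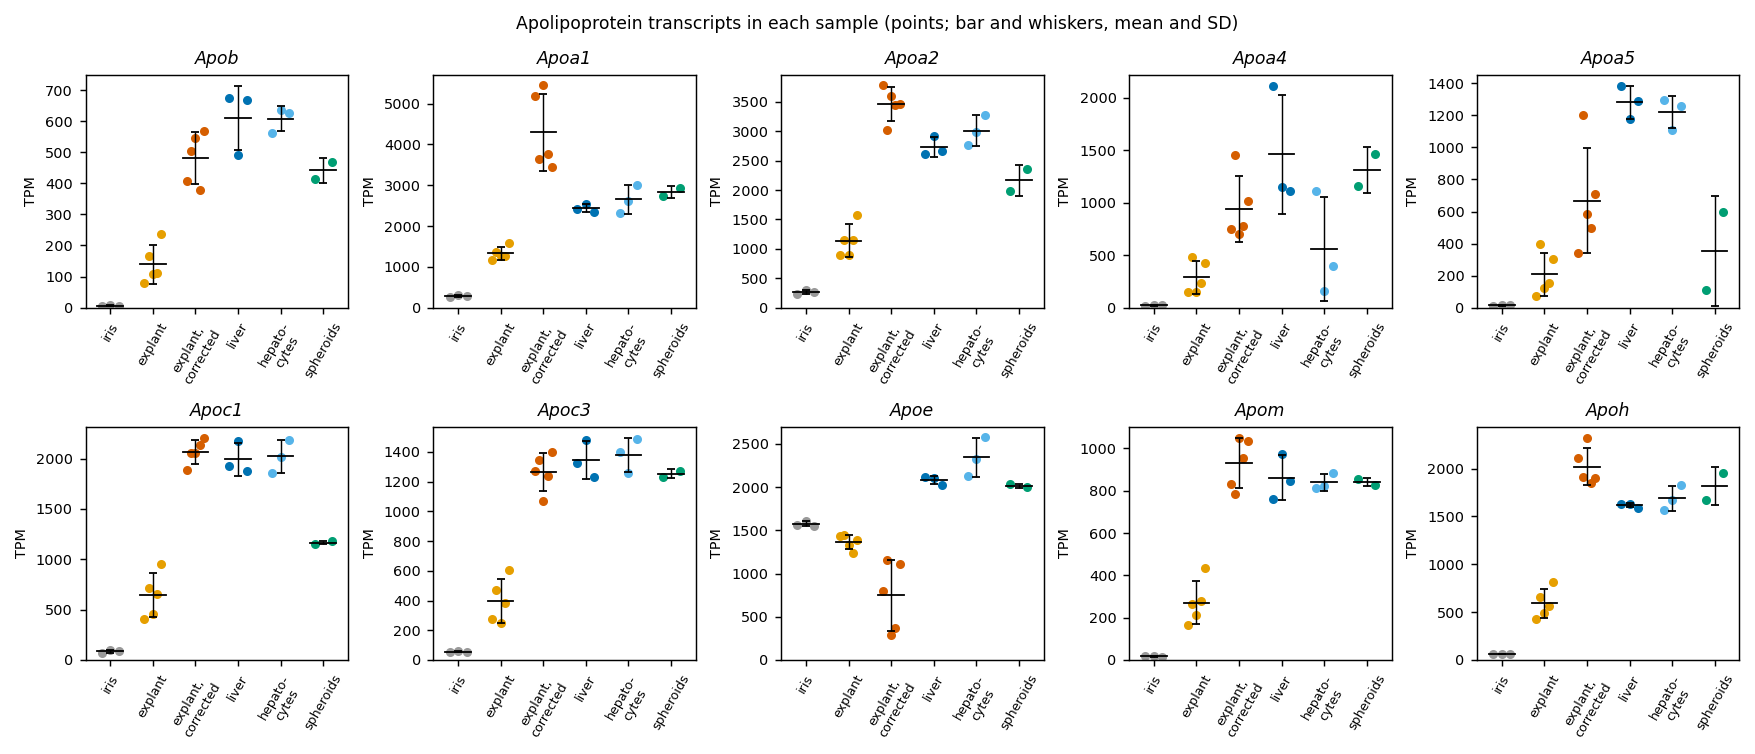
Level of each apolipoprotein transcript (TPM, linear axis from 0) in every sample of each group, with explants before and after subtraction of iris; points are samples, bars and whiskers the mean and SD. Apoe is the only member whose level in iris (1550 to 1606 TPM) is above its level in explants before correction (1237 to 1442 TPM).

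The comparison of explants with irises asks which apolipoprotein transcripts the graft brought into the eye. All but Apoe rose: 9 of the 10 members were higher and none lower, against 9.04% of all genes tested called higher and 2.74% called lower (edgeR, adjusted p < 0.05). Their median log2 fold change was 3.19, beside 0.01 over all genes and 3.15 for the 16 hepatocyte markers, all of which were higher. Apoa5 missed the threshold under 1 of 16 alternatives, limma-voom (3.57, adjusted p = 0.0667).

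Apob, the scaffold of very-low-density lipoprotein, rose most. It stood at 78.3, 165, 109, 111 and 236 TPM in explants 1, 2, 4, 5 and 6, and at 4.95, 7.42 and 6.18 TPM in irises 1 to 3. Every explant lay above every iris, and the fitted log2 fold change was 4.63 ± 0.46 (SE; edgeR adjusted p = 0.000407). Apom, which carries sphingosine-1-phosphate on high-density lipoprotein, was at 164 to 434 TPM in explants and 14.4 to 20.3 TPM in irises (log2 fold change 4.09, edgeR adjusted p = 0.000428).

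The smallest rises among the 9 were those of Apoa1 and Apoa2. Apoa1 was at 1168, 1361, 1268, 1260 and 1586 TPM in the explants and at 254, 316 and 288 TPM in the irises (log2 fold change 2.32 ± 0.16, edgeR adjusted p = 0.000118). Apoa2 was at 901 to 1580 TPM against 237 to 296 TPM (log2 fold change 2.20 ± 0.24, edgeR adjusted p = 0.000629). With the read start limit undone these became 2.68 for Apoa1 and 2.52 for Apoa2. Between these extremes lay Apoc3 (3.00), Apoc1 (3.02), Apoh (3.36), Apoa5 (3.86) and Apoa4 (3.91).

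Iris without a graft was not free of these transcripts. The mean level in iris was 11.7% of that in liver for Apoa1, 9.81% for Apoa2, 4.33% for Apoc1, 4.01% for Apoc3, 3.87% for Apoh, 2.00% for Apom, 1.44% for Apoa4, 1.23% for Apoa5 and 1.01% for Apob. The 16 hepatocyte markers spread over a like range, from 0.788% to 25.2% with a median of 5.65%. Where these reads came from was not tested. With the read start limit undone the share was 8.38% for Apoa1, 6.42% for Apoa2 and 0.968% for Apob, still the first, second and last of the 9.

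Apoe stood apart by its level in iris. It was 1565, 1606 and 1550 TPM in irises 1 to 3, 75.5% of the liver mean, and 1435, 1442, 1329, 1237 and 1384 TPM in explants 1, 2, 4, 5 and 6. All 5 explants lay below all 3 irises on this scale, an order noticed in these values and given with no test. The order was the same with the read start limit undone, at 1581 to 1830 TPM in explants and 1911 to 1965 TPM in irises. With counts scaled by TMM, which allows for the changed composition of the explant libraries, the difference shrank to a log2 fold change of -0.10 ± 0.08 (edgeR adjusted p = 0.432), and it was called under none of the 16 alternatives, where it ranged from -0.19 to -0.06.

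The explants also lay below every liver (2027 to 2121 TPM), hepatocyte (2127 to 2583 TPM) and spheroid (1997 and 2033 TPM) sample for Apoe before any correction. Mean counts of Apoe per base in a library lay between 0.852 and 1.01 in all 5 groups. Its counts were 5219 to 5732 in explants, above the 4954 to 5163 in irises. Total counts were 5449589 to 6789648 in explants, 4596550 to 4881817 in irises and 3523171 to 3871404 in livers. How far the low TPM of explants follows these totals and a limit on counts per base was not tested. Measured Apoe was 0.721 to 0.862 times the level that the iris mean and the liver mean would give at the iris shares of the correction described next. Macrophage markers, from cells known to make Apoe, were not low in the explants: their 12 genes summed to 1351 to 3765 TPM, against 929 to 983 TPM in iris and 661 to 1533 TPM in liver, with no marker at 0. The Schwann cell and glial markers summed to 739 to 1018 TPM in explants and 1097 to 1189 TPM in iris. Their part in the level of Apoe was not tested.

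**Figure D2:**
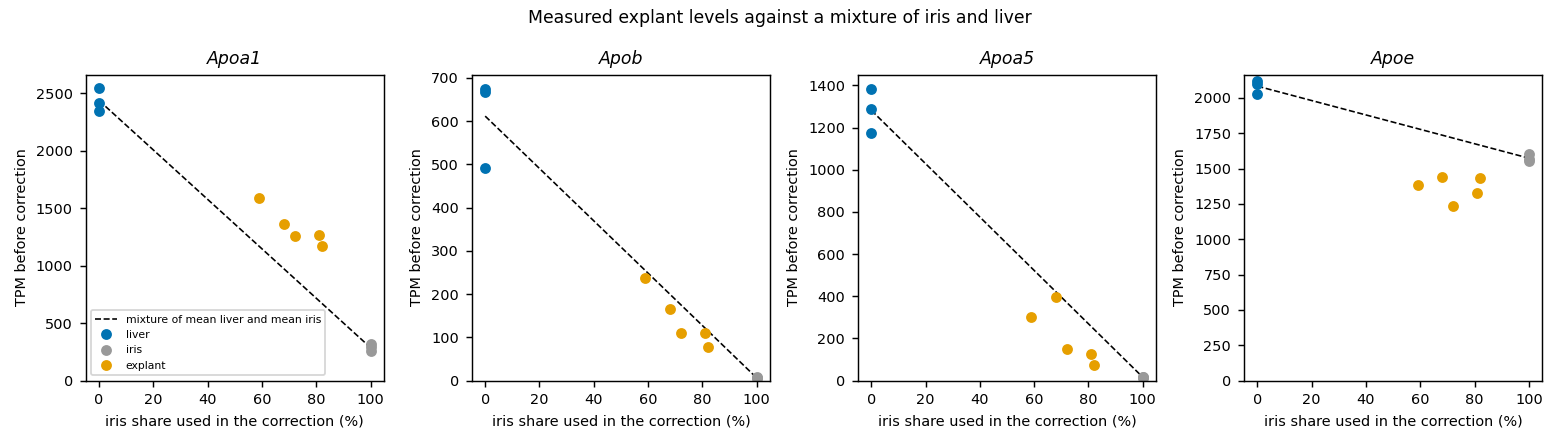
TPM before correction (vertical axis, from 0) of Apoa1, Apob, Apoa5 and Apoe against the iris share (percent) used in the correction; livers are drawn at a share of 0, irises at 100, and the dashed line joins their means. Apoa1 lies above the line in all 5 explants (1.36 to 1.82 times) and Apoe below it and below the irises in all 5.

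To compare grafts with liver, the contribution of iris has to be removed. The study subtracted the mean iris TPM times the iris fraction of each explant and divided by the rest. It calculated that fraction with CIBERSORT, a tool for mixed tissues, from expression signatures of iris and of liver. The fractions, solved from the deposited tables, were 82%, 68%, 81%, 72% and 59% for explants 1, 2, 4, 5 and 6 (mean 72.4 ± 9.56%, SD, n = 5). For 9 members the subtracted part was small, between 1.54% and 24.4% of the measured TPM. For Apoe it was 67.1% to 95.9%, so that the corrected level of Apoe is what is left of a large subtraction. The division then raised what was left of every member, more so at a higher iris share. Mean Apoa1 in explants went from 1328 TPM before correction to 4300 TPM after it. Its log2 fold change against livers was -0.88 without the correction and 0.79 with it. In bulk samples fewer cells of a type and less RNA per cell cannot be told apart.

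After correction the 10 genes together took 16886 ± 875 TPM in explants, against 16424 ± 689 TPM in liver. On this scale the sum was thus close to that of liver, while its make-up differed. The iris fractions were calculated with liver as a reference, so this closeness is not independent of the correction. The hepatocyte markers summed to 26982 to 38203 TPM in corrected explants and 23037 to 24819 TPM in livers. Apoa1 was 25.4 ± 4.77% of the sum in explants and 14.9 ± 0.538% in liver, and Apoa2 20.5 ± 1.82% and 16.6 ± 1.14%. In the same order Apoa5 was 3.95 ± 1.91% and 7.81 ± 0.661%, Apoa4 5.58 ± 1.83% and 8.85 ± 3.15%, and Apoe 4.41 ± 2.36% and 12.7 ± 0.234%. Apoc1 held nearly the same share in both, 12.3 ± 1.18% and 12.1 ± 0.867% (SD, n = 5 and 3). The shares of Apoa4 overlapped, at 3.96% to 8.53% in explants and 6.93% to 12.5% in livers. Those of Apoa2 overlapped with the read start limit undone (18.9% to 24.4% and 17.7% to 21.6%). Shares are parts of the same sum, so a low share of Apoe raises those of the other members.

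Against livers, 2 members were higher in corrected explants and 1 was lower (limma on log2(TPM + 1), adjusted p < 0.05), where 12.2% of all genes tested were called higher and 3.50% lower. The scale matters here: the median log2 fold change over all genes was 0.61, while that of the members was -0.02 and that of the hepatocyte markers 0.03. Scaling each sample to the same sum over the hepatocyte markers, an alternative added after seeing the data, gave every member a lower value, as for Apoc1 (-0.37 in place of 0.06).

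Apoa1, the defining protein of high-density lipoprotein, was higher. Its corrected level was 5183, 3645, 5454, 3764 and 3456 TPM in explants 1, 2, 4, 5 and 6, against 2416, 2550 and 2347 TPM in livers 1 to 3. The groups did not overlap, and the log2 fold change was 0.79 ± 0.17 (limma adjusted p = 0.0134), which is 0.19 above the median of all genes. The fold was 0.72 with the read start limit undone (limma adjusted p = 0.0123). Apoa1 held 1.18 counts per base in liver libraries and 0.911 in explant libraries, and whether the assumed limit removes all compression was not tested. Scaled to the hepatocyte markers, Apoa1 fell short of the threshold (0.36, limma adjusted p = 0.0861). It also fell just short when any single liver was left out (log2 fold change 0.77 to 0.83, limma adjusted p = 0.0504 to 0.0709). The corrected level of Apoa1 was highest in explants 1 and 4, which had the highest iris shares (82% and 81%). It was lowest in explant 6, which had the lowest share (59%). Before correction the explants spanned 1168 to 1586 TPM. How far the excess depends on the correction was not tested.

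Apoa2, its partner on the particle, was at 3787, 3016, 3602, 3445 and 3467 TPM in the explants and at 2605, 2927 and 2657 TPM in the livers. Every explant was above every liver, with a log2 fold change of 0.34 ± 0.10 (limma adjusted p = 0.0468). That call rested on the processing: the fold was 0.08 with the read start limit undone (limma adjusted p = 0.646) and -0.09 when scaled to the hepatocyte markers (limma adjusted p = 0.717). It was lost without any single liver (limma adjusted p = 0.0917 to 0.182) and without explant 1, 4, 5 or 6 (limma adjusted p = 0.0648 to 0.0874). Apom, another protein of this particle, had 784 to 1049 TPM in explants and 763 to 976 TPM in livers (log2 fold change 0.11 ± 0.15, limma adjusted p = 0.622).

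Apoe was the member called lower. Its corrected level was 802, 1162, 285, 372 and 1112 TPM in explants 1, 2, 4, 5 and 6, a 4.08-fold range, against 2121, 2102 and 2027 TPM in the livers. All explants were below all livers (log2 fold change -1.69 ± 0.46, limma adjusted p = 0.0371). The direction was the same under all 18 alternatives, but the size and the call depended on the iris share: with shares fitted by non-negative least squares the fold was -2.02 (limma adjusted p = 0.0598), and without correction -0.61 (limma adjusted p = 6.73e-05). The deposited column of explant 4 departs from the stated formula, and with the deposited values the fold was -3.33 (limma adjusted p = 0.401). Leaving out explant 1 (limma adjusted p = 0.0524), explant 5 (0.0681) or any liver (0.115 to 0.132) also ended the call.

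Apoa5 and Apoa4, which lie beside Apoa1, went the other way without passing the test. Apoa5, an activator of triglyceride clearance, was at 339, 1204, 587, 498 and 712 TPM in explants 1, 2, 4, 5 and 6 and at 1383, 1176 and 1288 TPM in livers. Explant 2 reached the range of liver and the other 4 did not (log2 fold change -1.07 ± 0.35, limma adjusted p = 0.0685). Without explant 2 the value was -1.31 (limma adjusted p = 0.0131), and with samples scaled to the hepatocyte markers -1.49 (limma adjusted p = 0.0403). Apoa4, an apolipoprotein whose liver transcript is known to follow lipid load, was at 754, 1459, 700, 777 and 1019 TPM, against 2117, 1155 and 1115 TPM in the livers, so the groups overlapped (log2 fold change -0.62 ± 0.29, limma adjusted p = 0.187).

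No other member was called. Apob was at 407, 504, 546, 379 and 567 TPM in the explants and 674, 493 and 668 TPM in the livers, which overlapped (log2 fold change -0.35 ± 0.19, limma adjusted p = 0.254). Apoc1 was at 1887 to 2208 TPM against 1875 to 2179 TPM, and Apoc3, an inhibitor of lipoprotein lipase, at 1072 to 1400 TPM against 1230.3 to 1482 TPM. Apoh, a phospholipid-binding plasma protein also called beta-2-glycoprotein I, was at 1853 to 2322 TPM in explants, above the 1590 to 1632 TPM of the livers, but its log2 fold change of 0.32 ± 0.11 did not pass (limma adjusted p = 0.0784).

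**Figure D3:**
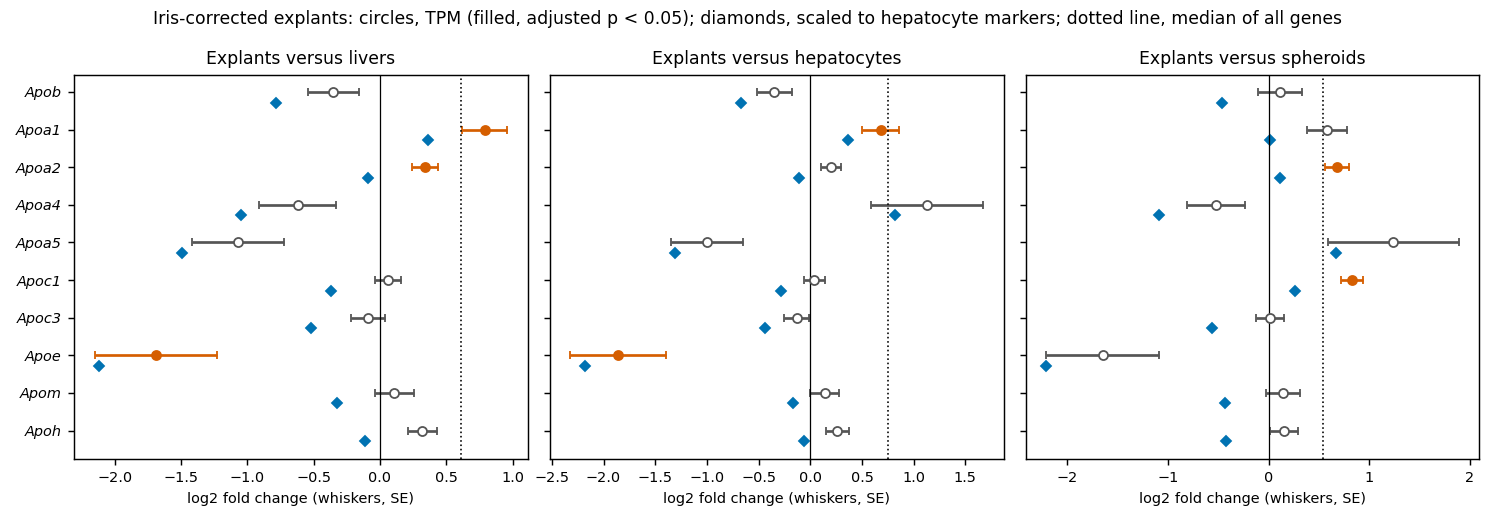
Log2 fold change of each member in iris-corrected explants against livers, hepatocytes and spheroids (circles with SE whiskers, filled where the limma adjusted p is below 0.05); diamonds give the value with samples scaled to the hepatocyte markers and the dotted line the median of all genes. Apoe is furthest to the left in all 3 panels, and every diamond lies left of its circle.

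The comparison with isolated hepatocytes shares the explant samples with that against livers. Apoa1 was the only member higher and Apoe the only one lower, where 16.2% of all genes were called higher and 3.96% lower. Apoa1 was at 2321, 2618 and 3015 TPM in hepatocytes 1 to 3, all below the explants (log2 fold change 0.68 ± 0.18, limma adjusted p = 0.0262), while the median of all genes was 0.75. Apoe was at 2127, 2325 and 2583 TPM there (log2 fold change -1.86 ± 0.46, limma adjusted p = 0.0215). Both calls were lost without any single hepatocyte sample, at limma adjusted p = 0.0501 to 0.117 for Apoa1 and 0.0671 to 0.0892 for Apoe, and that of Apoa1 when scaled to the hepatocyte markers (0.36, limma adjusted p = 0.0703). Apoa5 had a log2 fold change of -1.0 ± 0.35 (limma adjusted p = 0.0733), and -1.24 without explant 2 (limma adjusted p = 0.0109).

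Against spheroids kept in culture, Apoa2 and Apoc1 were higher in corrected explants and no member was lower, where 5.08% of all genes were called higher and 1.02% lower. Apoc1 was at 1152 and 1176 TPM in the 2 spheroid samples, below all explants (log2 fold change 0.83 ± 0.11, limma adjusted p = 0.00645). Apoa2 was at 1982 and 2354 TPM (log2 fold change 0.68 ± 0.12, limma adjusted p = 0.0181). With samples scaled to the hepatocyte markers, neither passed (Apoc1 0.26, limma adjusted p = 0.525; Apoa2 0.11, limma adjusted p = 0.721), and neither passed without spheroids 1 or spheroids 2 (limma adjusted p = 0.0816 and 0.0855 for Apoc1, 0.219 and 0.101 for Apoa2). Apoe was lower by 1.65 ± 0.56 on the log2 scale without passing (limma adjusted p = 0.153).

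Ratios of 2 members within a sample do not depend on how samples are scaled. In corrected explants they still depend on the iris share that was subtracted. That bears most on Apoe, of which 67.1% to 95.9% was subtracted. The 4 ratios given here were chosen after the levels were seen, from members that had gone apart, so they describe the same values on another scale and carry no test. Apoa1 over Apob was 6.09 to 12.7 in corrected explants, 3.51 to 5.18 in livers and 4.12 to 4.82 in hepatocytes. Apoa5 over its neighbour Apoa1 was 0.0653 to 0.33 in explants, 0.461 to 0.572 in livers and 0.417 to 0.559 in hepatocytes. Apoe over its neighbour Apoc1 was 0.139 to 0.565, 0.965 to 1.10 and 1.14 to 1.18 in the same order.

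In these 3 ratios, picked from members that had gone apart, the explants did not overlap livers or hepatocytes. The 2 spheroid samples did reach into the explant range for Apoa1 over Apob (6.59 and 6.26) and Apoa5 over Apoa1 (0.0406 and 0.204). For Apoe over Apoc1 they lay above the explants (1.76 and 1.70). How often other pairs of genes separate in this way was not counted. The mean log2 ratio differed from liver by 1.14 for Apoa1 over Apob, -1.86 for Apoa5 over Apoa1 and -1.75 for Apoe over Apoc1. With the read start limit undone, the difference for Apoe over Apoc1 was -1.28. Apoa4 over Apoa1 was 0.128 to 0.400 in explants and 0.453 to 0.876 in livers, while hepatocytes spread from 0.0604 to 0.478, across the range of the explants.

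**Figure D4:**
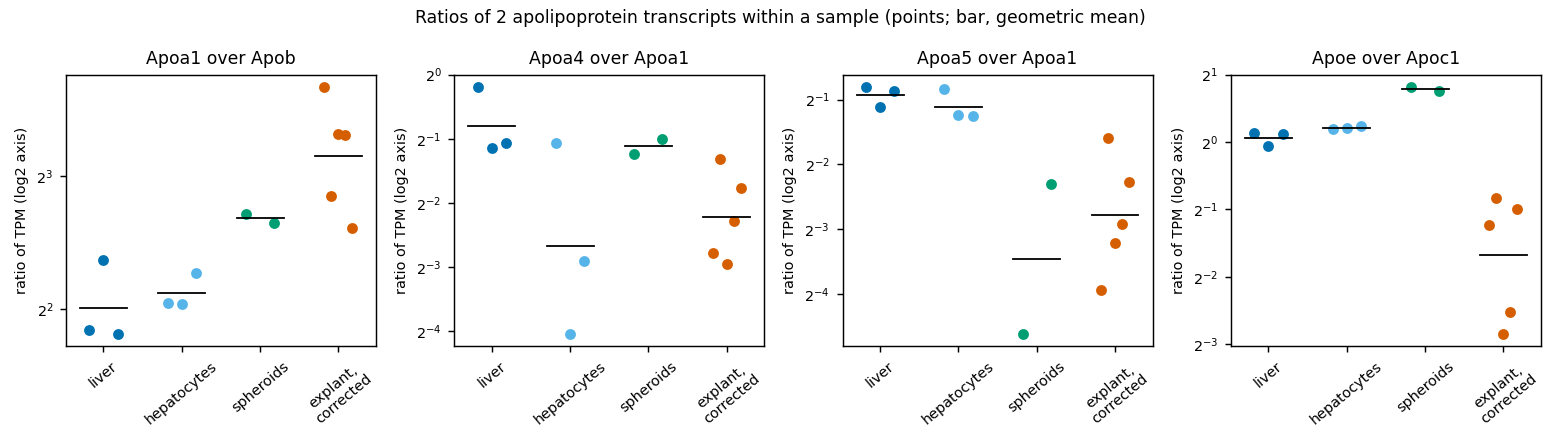
Ratio of the TPM of 2 members within each sample (log2 axis) in livers, hepatocytes, spheroids and iris-corrected explants; points are samples and bars geometric means. In these ratios, chosen after the levels were seen, explants sit apart from livers in all 4 panels, and from hepatocytes in all but Apoa4 over Apoa1. Explants and spheroids overlap for Apoa1 over Apob and for Apoa5 over Apoa1.

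The comparison of hepatocytes with livers asks what isolation of the cells changes. It called 0.785% of all genes higher and 2.84% lower, and none of the 10 members (edgeR; 1 member, Apoe, had an unadjusted p under 0.05). Of the other tools, DESeq2 and limma-voom also called none. The median log2 fold change of the members was 0.17, with 9 between 0.07 and 0.31. The 16 hepatocyte markers had a median of 0.27 and none was called.

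The exception in size was Apoa4. It was at 1111, 158 and 399 TPM in hepatocytes 1 to 3, a 7.03-fold range and the widest of any member within a group, and at 2117, 1155 and 1115 TPM in livers. All hepatocyte samples were below all livers, by 1.26 ± 0.59 on the log2 scale (edgeR adjusted p = 0.223). Without hepatocytes 1 the log2 fold change was -2.21 (edgeR adjusted p = 0.0403). Counts of Apoa4 are uncertain in 1 respect, since 632 of its 1815 exonic bases (34.8%) are shared with Gm10680 on the opposite strand and reads were assigned without regard to strand. Apoh shares 30 of 1594 bases with Prkca, and no other member shares exonic bases with another gene.

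The comparison of spheroids with hepatocytes covers formation of the spheroids and time in culture. Apoc1 and Apoa2 fell, so that 2 of the 10 were lower and none higher, where 12.5% of all genes were called higher and 13.4% lower. The members' median log2 fold change was -0.51, beside 0.01 over all genes and -0.61 for the hepatocyte markers. Apoc1, an inhibitor of lipoprotein clearance, was at 1152 and 1176 TPM in spheroids against 1859, 2015 and 2187 TPM in hepatocytes (log2 fold change -1.12 ± 0.20, edgeR adjusted p = 0.00679), and its call held under all 13 alternatives. Apoa2 was at 1982 and 2354 TPM against 2763, 2988 and 3279 TPM (log2 fold change -0.79 ± 0.23, edgeR adjusted p = 0.0401). It was not called without hepatocytes 2 (edgeR adjusted p = 0.0824), hepatocytes 3 (0.115) or spheroids 1 (0.114).

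Apoa5 had the largest value of the 10 but also the widest spread. It was at 111 and 599 TPM in spheroids 1 and 2, against 1298, 1111 and 1258 TPM in hepatocytes 1 to 3. Both spheroid samples were below all hepatocytes, and they differed 5.40-fold from each other (log2 fold change -2.04 ± 0.66, edgeR adjusted p = 0.0555). The value was -3.92 without spheroids 2 (edgeR adjusted p = 0.000697) and -1.24 without spheroids 1 (edgeR adjusted p = 0.0142). Apob was lower by 0.78 ± 0.26 on the log2 scale, at 414 and 470 TPM against 562, 636 and 626 TPM, and did not pass (edgeR adjusted p = 0.0614) except under 5 of 13 alternatives.

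Apoa4 was the only member whose fitted log2 fold change was above 0, at 1158 and 1465 TPM in spheroids, without passing (log2 fold change 0.94 ± 0.65, edgeR adjusted p = 0.324; without hepatocytes 1, 1.91 and 0.0244). Apoa1 (-0.23), Apoh (-0.22), Apom (-0.33), Apoc3 (-0.47) and Apoe (-0.55) were not called, with edgeR adjusted p between 0.125 and 0.537. These signs depend on scaling by TMM. Mean TPM of Apoa1, Apoh and Apom was higher in spheroids (2833, 1815 and 842) than in hepatocytes (2651, 1688 and 839). With library size alone the median log2 fold change over all genes was 0.27.

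Against livers, the same count of 2 members was lower in spheroids, where 15% of all genes were called higher and 15% lower. These were Apoc1 (log2 fold change -0.90 ± 0.18, edgeR adjusted p = 0.0104) and Apoa5 (-1.92 ± 0.62, edgeR adjusted p = 0.0488). The spheroid samples are the same in both comparisons. The call for Apoa5 was lost without liver 2 (edgeR adjusted p = 0.115) or liver 3 (0.0891), and its fold was -3.79 without spheroids 2 and -1.13 without spheroids 1. Apob was at -0.58 ± 0.22 (edgeR adjusted p = 0.0755; without spheroids 2, -0.82 and 0.0342), and the values of Apoa1, Apoh, Apom, Apoe, Apoc3, Apoa4 and Apoa2, from 0.10 to -0.45, did not pass.

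**Figure D5:**
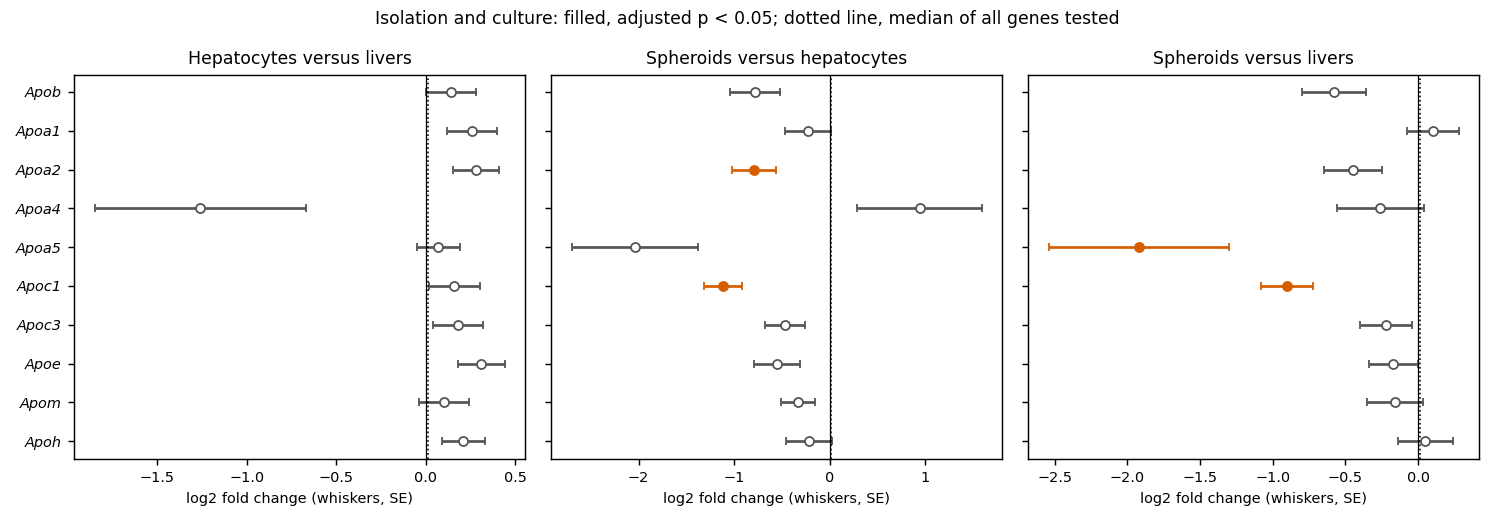
Log2 fold change of each member for hepatocytes against livers, spheroids against hepatocytes and spheroids against livers (circles, SE whiskers, filled where the edgeR adjusted p is below 0.05; dotted line, median of all genes). Apoc1 is filled in both spheroid panels, and Apoa5 lies furthest left in both with the widest whiskers on that side.

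Other cell types in the samples moved with these comparisons. Macrophage markers summed to 661 to 1533 TPM in livers and 185 to 332 TPM in hepatocytes, where 4 of 11 tested were lower, and to 698 and 896 TPM in spheroids, where 7 of 12 were higher than in hepatocytes. In corrected explants they summed to 3023 to 7803 TPM, with 8 of 12 higher than in livers. Over all genes 2.84% were lower in hepatocytes than in livers, and 12.5% were higher in spheroids than in hepatocytes. The share of all genes higher in corrected explants than in livers was 12.2%. The iris and pigment cell markers still summed to 510 to 4612 TPM in corrected explants, against 558 to 571 TPM in livers. Kupffer cell markers, of the macrophages resident in liver, summed to 51.8 to 369 TPM in corrected explants and 212 to 415 TPM in livers. Their part in the members' differences was not tested.

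Of 15 genes of lipoprotein assembly and secretion, which load lipid onto apolipoprotein B and move the particle out of the cell, 2 were higher and 2 lower in corrected explants than in livers, where 12.2% of all genes were higher and 3.50% lower. The lower ones were Dgat2, an enzyme of triglyceride synthesis (log2 fold change -0.99, limma adjusted p = 0.00724; 321 to 453 TPM against 641 to 856 TPM), and Sar1b, a GTPase of vesicles that leave the endoplasmic reticulum (-1.15, limma adjusted p = 0.0149). The higher ones were Apobec1, the enzyme that edits the Apob transcript (1.64, limma adjusted p = 0.0205), and Sec24c (0.79, limma adjusted p = 0.0355). Of 18 alternatives, 12 kept the call for Apobec1 and 10 that for Sec24c. In spheroids 1 of the 15 was called against hepatocytes, Apobec1, which was higher (0.79, edgeR adjusted p = 0.0181). Over all genes 12.5% were higher and 13.4% lower there.

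Of 14 genes that remodel lipoproteins in plasma, 8 were lower in spheroids than in hepatocytes and none higher, with a median log2 fold change of -0.92. Over all genes 13.4% were lower and 12.5% higher. Pon1, an antioxidant enzyme of high-density lipoprotein, was at 17.1 and 72.8 TPM in spheroids and 696 to 927 TPM in hepatocytes (log2 fold change -4.47, edgeR adjusted p = 0.00298). Lipg, Pltp and Lipc, which act on high-density lipoprotein lipids, were lower by 4.10, 3.12 and 2.36 on the log2 scale. In corrected explants Pon1 was at 470.0 to 896 TPM, above the spheroids (3.99, limma adjusted p = 0.0048), as was Pltp (3.22, limma adjusted p = 0.0018).

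Against livers, 1 of these 14 was higher in corrected explants and 1 lower, where 12.2% of all genes were higher and 3.50% lower. Lcat, which esterifies cholesterol on high-density lipoprotein with Apoa1 as its cofactor, was lower, at 356 to 601 TPM against 778 to 919 TPM (log2 fold change -0.90, limma adjusted p = 0.014). Lpl, the lipase of plasma triglyceride, was higher (2.80, limma adjusted p = 0.00969), and it was at 119 to 142 TPM in iris as well.

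Of 14 other apolipoprotein genes tested, 8 were lower in spheroids than in hepatocytes and none higher, with a median log2 fold change of -1.16. The shares over all genes were 13.4% lower and 12.5% higher. Saa4, a constitutive serum amyloid A of high-density lipoprotein, fell from 507, 707 and 525 TPM to 55.1 and 36.7 TPM (-4.00, edgeR adjusted p = 0.000139). Apol7a, Apol9a and Apol9b were lower by 4.57, 3.97 and 4.53 on the log2 scale. Apol9a and Apol9b are near-identical copies and may share reads. None of the 16 tested passed between corrected explants and livers (median -0.66), and 5 were higher in corrected explants than in spheroids, beside 5.08% of all genes.

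Among lipoprotein receptors and their regulators, 3 of 13 tested were higher and 3 lower in spheroids than in hepatocytes, beside 12.5% and 13.4% of all genes. Lrp1, a receptor for remnants that carry Apoe, was at 20.1 and 9.81 TPM in spheroids against 54.6 to 80.1 TPM (log2 fold change -2.49, edgeR adjusted p = 0.00155), while Vldlr was higher (2.24, edgeR adjusted p = 0.0133) from a level of 0.447 to 1.97 TPM. In corrected explants 1 of 13 differed from livers, Stab2, a scavenger receptor of sinusoidal endothelium, which was lower (-1.41, limma adjusted p = 0.0472) and kept its call under 6 of 17 alternatives (limma adjusted p up to 0.338). Over all genes 3.50% were called lower.

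Of transcription factors known to act on apolipoprotein genes, 5 of 23 were lower and 3 higher in corrected explants than in livers, and in spheroids 7 of 22 were lower and 2 higher than in hepatocytes. Over all genes 3.50% were lower and 12.2% higher in the first comparison, and 13.4% lower and 12.5% higher in the second, so the counts higher lie near those shares. Cebpa, a hepatocyte factor of the C/EBP family, was at 29.9 to 65.0 TPM in corrected explants and 23.8 and 35.8 TPM in spheroids, against 176 to 222 TPM in livers and 123 to 200.2 TPM in hepatocytes (log2 fold change -2.04, limma adjusted p = 0.00302, and -2.70, edgeR adjusted p = 0.000668). Ppara, the fatty acid receptor, was lower in explants (-2.23, limma adjusted p = 0.0134). Nr2f1 was higher (3.14, limma adjusted p = 0.0105) but stood at 18.6 to 20.8 TPM in iris against 0.416 to 1.03 TPM in livers.

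The genes whose levels were most like those of 4 members over all 16 samples before correction are given as a description, since all samples share the contrast of iris with liver. Among 10932 genes with a mean of at least 10 TPM, Apoa1 was closest to Serpina1b, Serpina1a and Apoh (Pearson r of log2(TPM + 1) from 0.998 to 0.999), and Apob to Plg, Inhca and Ces1c (0.997 to 0.998). Apoa4 was closest to Gm10680, with which it shares reads (0.998), then to Hsd17b13 (0.98) and Tm6sf2 (0.967), a gene of the assembly list. Apoe was closest to Ftl1 (0.978), ND2 (0.969) and AY036118 (0.968), none of which is restricted to liver.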

How the data were processed

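The members and gene lists were chosen with earlier results of these data known. The authors aligned Smart-seq3 reads to mm10 with TopHat2, removed duplicate reads (the study names UMI-tool dedup and SAMtools, with no settings) and made the deposited counts with featureCounts, assigning reads to every gene they overlap and ignoring strand. They deposited TPM per sample, and an iris-corrected table of the same scale (treated here as a signal), in which explant 4 departs from the stated formula, so the correction was recomputed alike for all explants. The 92 ERCC rows (0.000586% of counts) were left out. Counts of 3 technical libraries were summed and compared by the quasi-likelihood F-test of edgeR 4.0.16, with its filterByExpr and TMM defaults and 2 groups a fit; corrected TPM with limma 3.58.1 (trend, log2(TPM + 1), mean of at least 1 TPM). P-values were adjusted over all genes tested (Benjamini-Hochberg), and adjusted p < 0.05 is a call. Standard errors of edgeR come from the F statistic. Named genes are all members and, per list and comparison, up to 4 genes passing the test with the largest fold. DESeq2 1.42.0, limma-voom and the settings below were alternatives. Scripts were tested on simulated data.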

Additional observations from a re-analysis of the deposited data

How the results depend on the processing

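Over all alternatives, values of single members kept their direction and side of the threshold 981 times, gained a call 36 times, lost it 55 times and reversed 18 times. For spheroids against hepatocytes, main counts of 0 members higher and 2 lower became 4 lower under limma-voom and with all 5 groups in a single fit, 4 lower and 1 higher with no filter on low counts, and 1 lower where an absolute log2 fold change above 1 was also required. For spheroids against livers, 2 lower became 1 under DESeq2, under RLE size factors and with that fold limit. For hepatocytes against livers, 1 was lower with no filter (Apoa4, -1.22) and 1 higher with all groups in a single fit (Apoe, 0.37). For corrected explants against livers, the 2 higher and 1 lower became 1 and 0 with no filter and with the deposited corrected values, 2 and 0 with iris fractions by non-negative least squares, and 1 and 1 with the read start limit undone and with samples rescaled to 1 total, an alternative added after seeing the data. They became 0 and 2 when scaled to the hepatocyte markers and 0 and 1 with the fold limit. Against hepatocytes, 1 and 1 became 0 higher with no filter, 0 lower with the deposited values, 2 higher by least squares, 0 higher when scaled to the hepatocyte markers and 0 higher with the fold limit. Against spheroids, 2 higher became 1 with no filter, 0 when scaled to the hepatocyte markers and 0 with the fold limit. The cause of these changes was not tested, beyond the larger number of genes tested without a filter.

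Without the correction, where explants hold mostly iris, 0 members were higher and 10, 9 and 9 lower than in livers, hepatocytes and spheroids, and these log2 fold changes reversed. Against livers they were -0.88 for Apoa1, -1.29 for Apoa2, -1.70 for Apoc1, -1.48 for Apoh and -1.74 for Apom, and Apoa2 also reversed when scaled to the hepatocyte markers (-0.09). Against hepatocytes they were -1.0 for Apoa1, -1.43 for Apoa2, -1.72 for Apoc1, -1.54 for Apoh, -1.70 for Apom, -0.02 for Apobec1 and -0.17 for Cd36. Against spheroids they were -1.10 for Apoa1, -0.96 for Apoa2, -1.76 for Apob, -0.93 for Apoc1, -1.74 for Apoc3, -1.65 for Apoh and -1.71 for Apom.

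Leaving out 1 sample in turn gave 9 members higher and 0 lower in every case for explants against irises, 0 to 1 lower for hepatocytes against livers, 1 to 4 lower and 0 to 1 higher for spheroids against hepatocytes, and 1 to 3 lower for spheroids against livers. For corrected explants it gave 0 to 2 higher and 0 to 2 lower against livers, 0 to 1 higher and 0 to 2 lower against hepatocytes, and 0 to 2 higher against spheroids. Where 1 spheroid sample is left, it is assumed to vary like the other group.

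Samples of different groups share a replicate number without a stated pairing, and same-numbered samples correlated at -0.108 to 0.193. With the number as a replicate block, 0 members were higher and 0 lower in the 3 comparisons of corrected explants, where the block also left 0 calls among all genes, and Apoa2 was not called in spheroids against hepatocytes (-0.71, edgeR adjusted p = 0.132).

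Depth limits the members most in irises, where Apom held 24 to 32 counts a sample and Apoa4 and Apoa5 52 to 79, and the 2 spheroid samples and the size of the iris share limit the precision of the comparisons that use them.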
